A study of Homo sapiens with 8 samples.

Results

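The 10 genes described here encode ligands, receptors and intracellular mediators of transforming growth factor beta (TGF-beta) signalling. They are the ligand genes TGFB1, TGFB2 and INHBA, the receptor genes TGFBR1 and TGFBR2, the signal-carrying SMAD2, SMAD3 and SMAD4, and the inhibitors SMAD7 and SKIL. The rule that set the list names gene symbols and uses no measured value, though the symbols were chosen with earlier results of these data known. All 10 symbols were found among the 34415 of the count table. RNA was sequenced from cultures of HaCaT, an immortal but non-tumorigenic human skin keratinocyte line kept at 5.5 mM glucose and moved to 35 mM glucose for 96 h. Small interfering RNA (siRNA) against the ETS-family transcription factor ETV4 was transfected into 4 cultures (siETV4) for 48 h, and a negative-control siRNA into 4 cultures (siNC). All 8 cultures share the cell line, the passage range of 21 to 33 and the high glucose, so the comparison is of the siRNAs within high glucose.

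TGF-beta family ligands are secreted as dimers and bring type II and type I receptor kinases together at the cell surface. The type I receptor then phosphorylates the receptor-regulated SMADs, which join SMAD4 and enter the nucleus to regulate transcription. In keratinocytes TGF-beta is best known for arresting proliferation and for its part in migration and matrix production during wound repair.

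The libraries held 35057643 to 41657753 counts each. ETV4 averaged 2.61 ± 0.547 CPM (counts scaled to library size) in siETV4 and 28.2 ± 5.64 CPM in siNC (SD, n = 4 each), with no overlap between the groups. In siNC replicates 1 to 4 ETV4 stood at 32.0, 29.7, 31.1 and 19.8 CPM, with replicate 4 the lowest. All 12 keratinocyte markers examined had counts in every library, and their summed level was 5504 to 6014 CPM in siETV4 and 5324 to 6008 CPM in siNC. Among them KRT17 differed, with 367, 470, 379 and 410 CPM in siETV4 and 222, 219, 227 and 171 CPM in siNC. Its log2 fold change, siETV4 over siNC, was 0.95 (edgeR adjusted p 0.00636). The fibroblast marker sums were 15.3 to 19.8 CPM for siETV4 libraries and 16.0 to 20.0 CPM for siNC libraries, with COL1A2 and LUM at 0 in every library. Most of the fibroblast sum was TWIST2, at 10.9 to 14.3 CPM in siETV4 and 12.5 to 15.6 CPM in siNC. Endothelial markers summed to 15.8 to 22.2 CPM in siETV4 and 14.3 to 18.1 CPM in siNC, and melanocyte markers to 5.63 to 9.32 CPM in siETV4 and 4.13 to 8.41 CPM in siNC. Immune markers, with AIF1 and PTPRC at 0, summed to at most 0.852 CPM in siETV4 and 0.832 CPM in siNC. Library siNC replicate 4 stood apart from the other siNC libraries, and the tests of the 10 genes and the counts for each gene list are given with and without it.

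ETS factors such as ETV4 bind DNA around a GGAA core, and SMAD3 and SMAD4 bind a short box, CAGAC. Promoter windows of 300 bases (250 before to 50 after each annotated start, from RefSeq on GRCh38.p14) were found for all 10 genes, 25 windows in all. Only the longer form CCGGAA, which reads TTCCGG on the opposite strand, was searched, and it is called the ETS core here. Other GGAA sites were not counted. The SMAD box was searched in both directions too, and appears as GTCTG where it lies on the opposite strand. In the windows printed here no match of one motif overlapped a match of the other. The ETS core was present in a window of 2 of the 10 genes, TGFBR1 and SMAD7, against 20.1% of the 27305 genes with a window. The SMAD box was present for 6 of the 10, against 13649 of those 27305 genes. The stretches below lie upstream of a start, outside annotated exons, and show the windows of TGFBR1 and SMAD7 with the ETS core, and the window of SKIL, the gene with the largest SD of CPM among the siNC libraries (22.0). Capitals mark the motifs.
TGFBR1, chr9:99103802-99104037, plus strand: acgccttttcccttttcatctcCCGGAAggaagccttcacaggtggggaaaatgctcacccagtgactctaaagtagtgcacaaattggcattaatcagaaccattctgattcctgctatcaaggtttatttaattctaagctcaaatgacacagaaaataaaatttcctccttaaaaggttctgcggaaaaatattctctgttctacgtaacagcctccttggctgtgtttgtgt
SMAD7, chr18:48949334-48949583, minus strand: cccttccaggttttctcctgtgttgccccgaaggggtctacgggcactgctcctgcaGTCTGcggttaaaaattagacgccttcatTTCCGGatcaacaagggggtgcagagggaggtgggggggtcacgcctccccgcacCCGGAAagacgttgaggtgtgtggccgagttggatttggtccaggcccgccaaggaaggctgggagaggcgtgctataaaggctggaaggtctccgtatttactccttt
SKIL, chr3:170357465-170357677, plus strand: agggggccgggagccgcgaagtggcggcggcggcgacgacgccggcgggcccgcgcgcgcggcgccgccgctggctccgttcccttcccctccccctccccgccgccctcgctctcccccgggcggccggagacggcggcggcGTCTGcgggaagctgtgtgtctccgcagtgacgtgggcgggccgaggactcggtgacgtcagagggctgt
The TGFBR1 stretch holds CCGGAA once and belongs to 1 of 8 windows listed for that gene. That window also has 2 SMAD boxes near its start, which the printed stretch does not hold in full. The SMAD7 stretch holds CCGGAA on both strands and a SMAD box, and the SKIL stretch holds a SMAD box and no CCGGAA. These are matches of letters, and binding was not measured.

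The question for all 10 genes was whether their RNA differed between siETV4 and siNC. With all 8 libraries, 0 of the 10 genes passed an adjusted p of 0.05 in edgeR's quasi-likelihood test, and 0 of 10 passed with DESeq2 or limma-voom. Over all 13572 genes tested, 32 passed in edgeR, which is 0.236%. At an unadjusted p under 0.05, 1 of the 10 genes (10.0%) passed, TGFB2, against 12.6% of all tested genes. The log2 fold change, siETV4 over siNC, was positive for 6 of the 10 genes and negative for 4, with a median of 0.21 against -0.01 over all tested genes. The 95% interval of the log2 fold change differed in width between genes. It was narrowest for SMAD3, at -0.39 to 0.02, and widest for TGFBR1, at -0.30 to 1.03. That of TGFB2 (0.10 to 0.80) did not include 0. The CPM ranges of the siETV4 and siNC libraries overlapped for all 10 genes, while over all tested genes 6.55% had groups that did not overlap (2.62% higher and 3.93% lower in siETV4). In RNA from whole cultures, fewer cells that express a gene and less of its RNA per cell cannot be told apart.

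**Figure D1:**
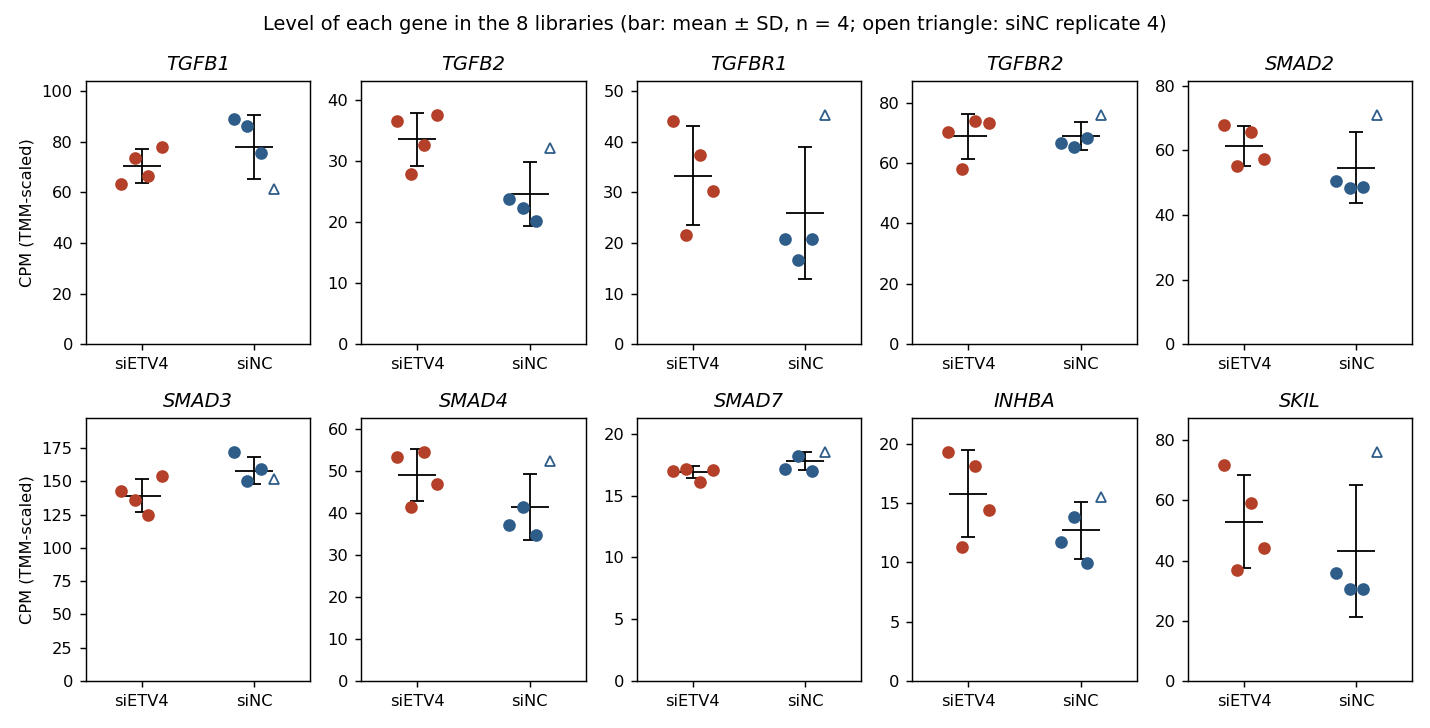
CPM of each of the 10 genes in the 4 siETV4 libraries (left, red) and the 4 siNC libraries (right, blue), with the mean and SD of each group as black bars and siNC replicate 4 as an open triangle. In TGFBR1, SMAD2 and SKIL the triangle stands far above the other siNC libraries, at 45.2, 70.8 and 76.1 CPM.

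Levels per gene length were compared on the deposited FPKM, which divide each count by the library total and the gene length, the scale on which genes can be set beside each other. TGFB1 had the highest FPKM level in both groups, 25.7 ± 2.29 in siETV4 and 27.5 ± 3.92 in siNC (SD, n = 4 each). SMAD3 followed at 19.4 ± 1.66 FPKM in siETV4 and 21.4 ± 1.44 FPKM in siNC, and TGFBR2 at 10.5 ± 1.33 FPKM in siETV4 and 10.2 ± 0.988 FPKM in siNC. The receptor partner TGFBR1 was lower, at 3.38 ± 1.02 FPKM in siETV4 and 2.56 ± 1.38 FPKM in siNC. SKIL, SMAD4, TGFB2 and SMAD7 lay between TGFBR2 and TGFBR1, at 4.63 to 7.21 FPKM in siETV4 and 4.08 to 5.76 FPKM in siNC. INHBA, at 1.98 FPKM in siETV4 and 1.55 FPKM in siNC, and SMAD2, at 1.48 FPKM in siETV4 and 1.28 FPKM in siNC, were the lowest. Of the 9 pairs of neighbours in this order, 6 overlapped between libraries in siETV4 and 8 in siNC. The step between SMAD3 and TGFBR2 did not overlap in either group. The place of SMAD2 rests on its length: the deposited values imply 42081 bases for SMAD2 and at most 10054 for any of the other 9 genes.

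**Figure D2:**
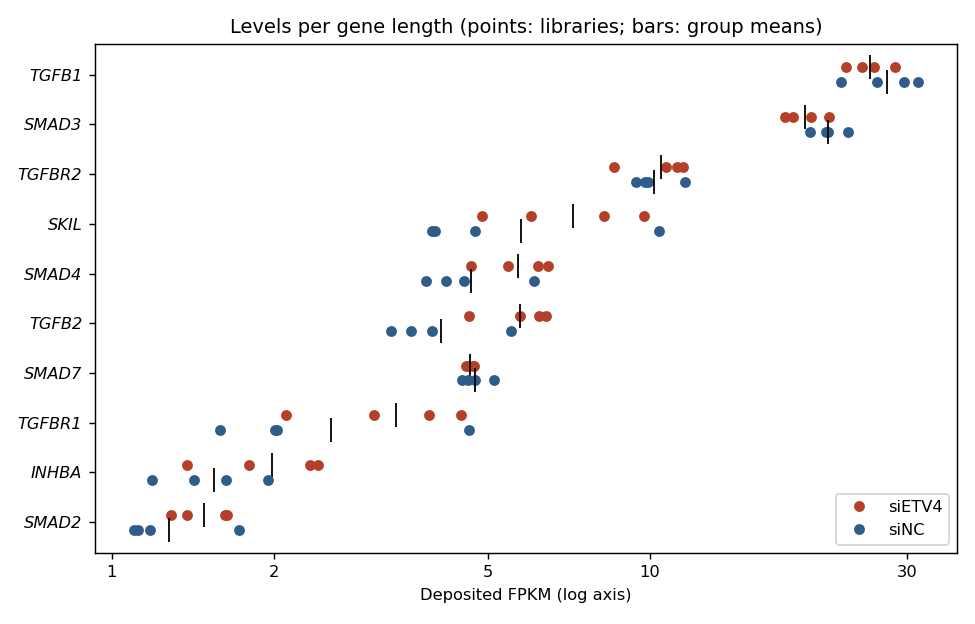
Deposited FPKM of the 10 genes on a log axis, with 1 point per library (red siETV4, above; blue siNC, below) and a bar at each group mean. TGFB1 and SMAD3 stand at the top, near 20 to 30 FPKM, and INHBA and SMAD2 at the bottom, under 3 FPKM.

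Among the ligands, TGFB2 had the largest log2 fold change of the 10 genes with all 8 libraries, and that of TGFB1 was negative, neither past the threshold. Once siNC replicate 4 was left out, the log2 fold changes of TGFBR1 and SKIL were larger than that of TGFB2. TGFB1, the main TGF-beta isoform of most cell types, had 63.3, 73.8, 66.4 and 78.1 CPM in siETV4 and 89.0, 86.1, 75.6 and 61.3 CPM in siNC. The highest 2 values were siNC libraries, but so was the lowest, replicate 4. Its log2 fold change was -0.15 (SE 0.13, edgeR adjusted p 0.629). TGFB2, a second isoform of the same dimeric ligand, had 36.5, 27.9, 32.7 and 37.5 CPM in siETV4 and 23.8, 22.3, 20.2 and 32.1 CPM in siNC. Every siETV4 library was above siNC replicates 1 to 3, and siNC replicate 4 lay inside the siETV4 range. The log2 fold change of TGFB2 was 0.45 (SE 0.16, 95% interval 0.10 to 0.80) with an edgeR adjusted p of 0.323. INHBA, the subunit of activin A, which signals through the same SMAD2 and SMAD3, had 19.3, 11.3, 18.1 and 14.4 CPM in siETV4 and 11.7, 13.8, 9.92 and 15.5 CPM in siNC. Its groups were interleaved, with a log2 fold change of 0.31 (SE 0.19, edgeR adjusted p 0.512). TGFB1 shares 215 exon bases with HNRNPUL1 on the opposite strand, and whether the authors counted by strand is not stated in the labels. Per library, HNRNPUL1 had 10292 to 14420 counts and TGFB1 had 2531 to 3648. TGFB2 shares 1371 exon bases with TGFB2-OT1 on the same strand, which had 0 counts in every library. SMAD4 shares 967 exon bases with AC091551.1 on the same strand, and SMAD3 shares 182 with AC087482.1 on the opposite strand. Neither AC091551.1 nor AC087482.1 was among the symbols counted.

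The receptors differed in how steady they were. TGFBR1, the type I receptor kinase that phosphorylates SMAD2 and SMAD3, had 44.1, 21.5, 37.4 and 30.3 CPM in siETV4 and 20.8, 16.7, 20.8 and 45.2 CPM in siNC. The highest and the lowest of the 8 values were both siNC libraries, and siNC replicate 4 stood at 2.33 times the mean of the other siNC libraries. Its log2 fold change was 0.37 (SE 0.30, 95% interval -0.30 to 1.03, edgeR adjusted p 0.620). TGFBR2, the type II receptor that binds the ligand and activates TGFBR1, had 70.4, 57.9, 73.9 and 73.2 CPM in siETV4 and 66.5, 65.4, 68.2 and 75.8 CPM in siNC. The means of the groups were equal to 3 digits, 68.9 ± 7.44 CPM in siETV4 and 68.9 ± 4.70 CPM in siNC (SD, n = 4 each). The interval of the TGFBR2 log2 fold change, -0.23 to 0.23, was narrower than that of TGFBR1.

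The signal-carrying SMADs did not pass the threshold either. SMAD2, phosphorylated by TGFBR1, had 67.7, 55.0, 65.5 and 57.2 CPM in siETV4 and 50.4, 48.4, 48.7 and 70.8 CPM in siNC. The siNC libraries 1 to 3 spanned 48.4 to 50.4 CPM and were below every siETV4 library, while siNC replicate 4 was the highest of all 8. SMAD4, the shared partner of the activated SMADs, had 53.3, 41.3, 54.5 and 46.9 CPM in siETV4 and 37.1, 41.4, 34.7 and 52.3 CPM in siNC. For SMAD4 the groups overlapped, and siNC replicate 4 was again the highest siNC library. The log2 fold change was 0.17 for SMAD2 (SE 0.14, edgeR adjusted p 0.615) and 0.24 for SMAD4 (SE 0.15, edgeR adjusted p 0.498). SMAD3, the other SMAD activated by TGFBR1, had the highest CPM of the 10 genes, with 143, 136, 125 and 154 CPM in siETV4 and 172, 150, 159 and 152 CPM in siNC. Its 3 lowest values were siETV4 libraries, and siETV4 replicate 4 reached into the siNC range. The log2 fold change of SMAD3 was -0.18 (SE 0.09, 95% interval -0.39 to 0.02, edgeR adjusted p 0.425).

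Neither inhibitor passed the threshold, and their spread between libraries was unlike. SMAD7, an inhibitory SMAD that blocks and degrades the receptor complex and is itself induced by TGF-beta, had 17.0, 17.2, 16.1 and 17.1 CPM in siETV4 and 17.2, 18.2, 17.0 and 18.5 CPM in siNC. The 8 libraries spanned 16.1 to 18.5 CPM, and the log2 fold change was -0.07 (SE 0.11, 95% interval -0.31 to 0.17, edgeR adjusted p 0.782). SKIL, which encodes the corepressor SnoN that holds SMAD complexes inactive, had 71.8, 37.0, 59.0 and 44.2 CPM in siETV4 and 35.9, 30.6, 30.7 and 76.1 CPM in siNC. Here siNC replicate 4 was the highest of the 8 libraries, at 2.35 times the mean of the other siNC libraries, which were all below the siETV4 libraries. The log2 fold change of SKIL was 0.29 (SE 0.30, 95% interval -0.37 to 0.95, edgeR adjusted p 0.685).

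Leaving out siNC replicate 4 changed the calls for 5 of the 10 genes. Without it, TGFB2 (log2 fold change 0.61, SE 0.13), TGFBR1 (0.78, SE 0.20), SKIL (0.71, SE 0.18), SMAD4 (0.38, SE 0.12) and SMAD2 (0.32, SE 0.10) passed as higher in siETV4, with edgeR adjusted p values of 0.0133 to 0.0464. The other 5, INHBA, TGFB1, SMAD3, TGFBR2 and SMAD7, did not pass (edgeR adjusted p 0.102 to 0.771). That count of 5 of 10 stands beside 2327 of 13783 genes called in the same run, 16.9%, with 12.0% higher in siETV4 and 4.88% lower. Without siNC replicate 4 the groups did not overlap for 4 of the 10 genes (TGFB2, TGFBR1, SMAD2 and SKIL, all higher in siETV4), against 28.7% of all tested genes (15.8% higher and 12.9% lower). Leaving out any of the other 7 libraries gave 0 calls among the 10 genes. Replicate 4 of siNC was singled out by its values in these same data. Leaving it out narrowed the siNC spread, as for SKIL, with an SD of 22.0 CPM with it and 3.02 CPM without. Adjusted p values given here and below without this library do not allow for that choice.

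The genes that passed without siNC replicate 4 were among those with few G and C bases in their transcripts. SKIL, at 33.4% GC in its longest annotated transcript, lies at the 0.3 percentile of the 12971 tested genes with a value. TGFB2 (38.9%), TGFBR1 (39.0%), INHBA (39.1%), SMAD2 (40.2%) and SMAD4 (41.1%) lie between the 11.4 and 20.9 percentiles, and TGFB1, at 63.5%, lies at the 94 percentile. All 6 genes under 45% GC had a positive log2 fold change with all 8 libraries, and the 4 others, TGFBR2, SMAD3, SMAD7 and TGFB1, had a negative one, with TGFBR2 at -0.00. Over all tested genes the median log2 fold change fell along the same scale, with 0.20 for genes of 35 to 40% GC, 0.00 for genes of 45 to 50% and -0.15 for genes over 60%. Without siNC replicate 4, 30.1% of the 4884 tested genes under 45% GC and 2.17% of the 8239 others were called higher in siETV4. In that run 5 of the 6 low-GC genes of the pathway group and 0 of the 4 others were called.

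Libraries differed in the same property. Each library's departure from the 8-library mean ran with GC content, across genes (which are not independent replicates), at Spearman's rho of -0.66, 0.21, -0.59 and 0.02 in siETV4 replicates 1 to 4, and of 0.57, 0.54, 0.65 and -0.61 in siNC replicates 1 to 4. The median deviation of the 6 low-GC genes on the log2 scale was 0.41, -0.20, 0.33 and 0.06 in siETV4 replicates 1 to 4, and -0.26, -0.29, -0.44 and 0.26 in siNC replicates 1 to 4. The libraries with a negative rho, siETV4 replicates 1 and 3 and siNC replicate 4, were the 3 in which these genes stood highest. The 4 other genes had median deviations of -0.12 to 0.07 in siETV4 and 0.01 to 0.11 in siNC.

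**Figure D3:**
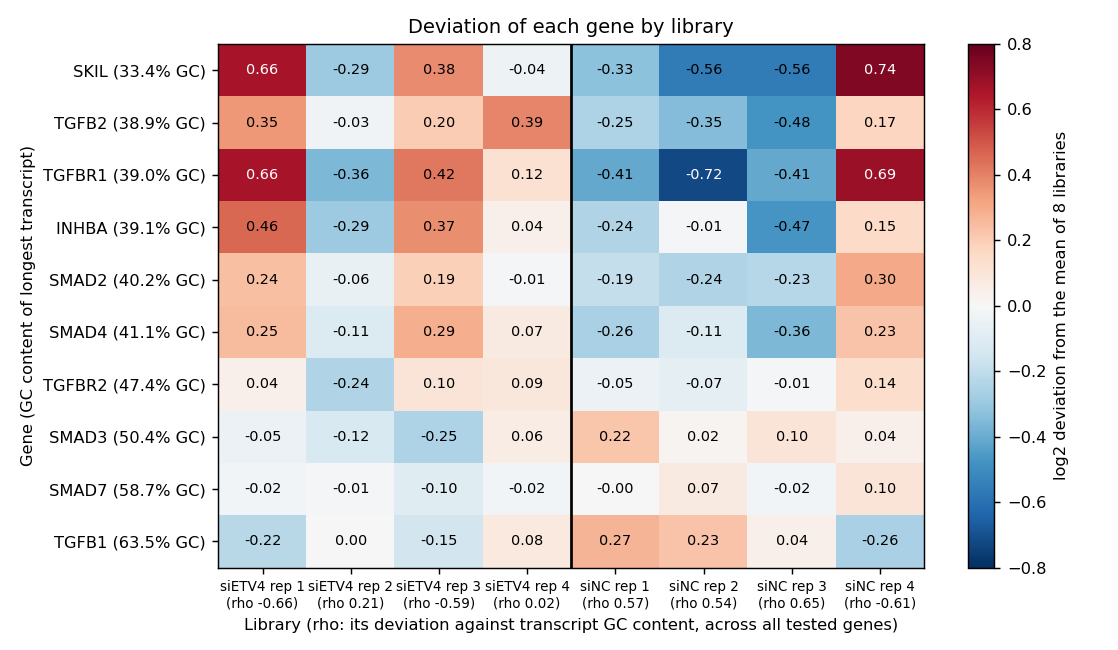
Deviation of each gene from its mean over the 8 libraries (log2 scale, red above and blue below the mean), with genes ordered by transcript GC content from 33.4% at the top to 63.5% at the bottom, and siETV4 libraries left of siNC libraries. SKIL and TGFBR1 are highest in siETV4 replicate 1 (0.66 each) and siNC replicate 4 (0.74 and 0.69).

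When library-wise trends with GC content and gene length were taken out, 0 of the 10 genes passed, against 225 of 12971 genes (1.73%, with 0.871% higher and 0.863% lower in siETV4). The log2 fold changes then lay between -0.11 (SMAD3, SE 0.06) and 0.23 (TGFB2, SE 0.11), with edgeR adjusted p values of 0.329 to 0.990. For SKIL the corrected levels were 53.9, 41.7, 52.4 and 50.6 CPM in siETV4 and 43.3, 40.2, 42.7 and 56.5 CPM in siNC. The gap between siNC replicate 4 and the other siNC libraries was smaller than before the correction but still present in SKIL. For TGFB2 they were 29.3, 31.0, 28.9 and 40.2 CPM in siETV4 and 28.6, 29.3, 27.2 and 25.1 CPM in siNC, with siETV4 replicates 2 and 4 above every siNC library. With the trends removed and siNC replicate 4 also left out, 0 of the 10 genes passed, against 6.46% of genes (2.93% higher and 3.53% lower), and TGFBR1 had a log2 fold change of 0.34 (edgeR adjusted p 0.107). None of the 5 calls made without siNC replicate 4 was obtained once these trends were removed. The correction also removes any difference between the siRNA groups that runs with GC content or gene length. The cause of the 5 calls was not tested.

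**Figure D4:**
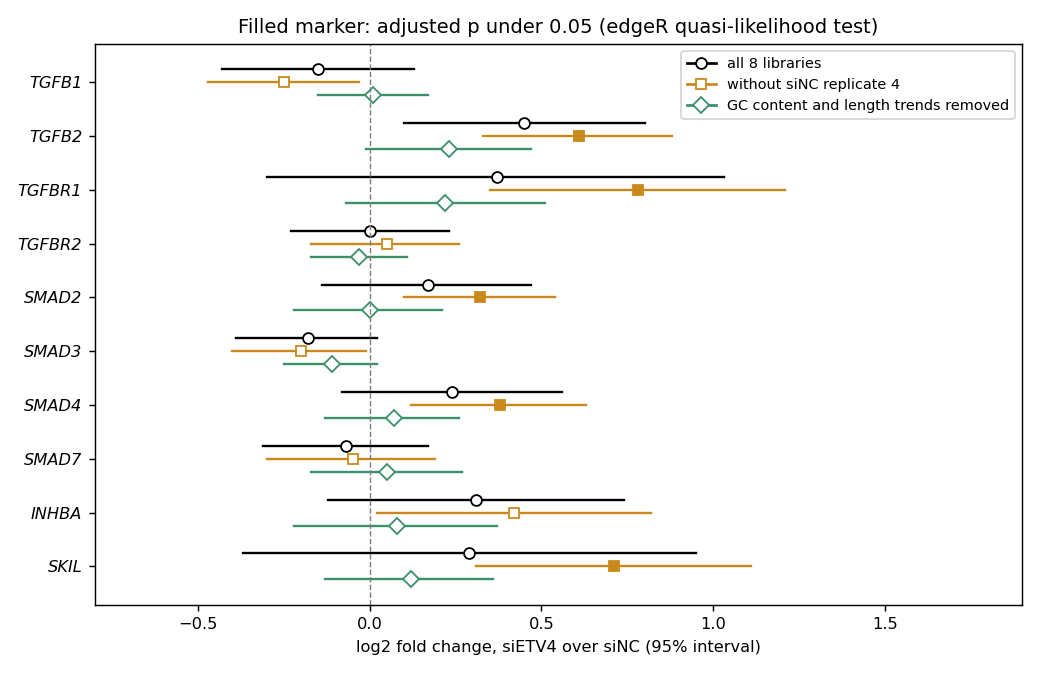
Log2 fold change, siETV4 over siNC, of each gene with its 95% interval, for all 8 libraries (black circles), without siNC replicate 4 (orange squares) and with GC content and length trends removed (green diamonds). Only 5 orange squares, of TGFB2, TGFBR1, SMAD2, SMAD4 and SKIL, are filled (adjusted p under 0.05).

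In the genome, 3 of the SMAD genes lie on chromosome 18 (GRCh38.p14). SMAD2 spans 47808957 to 47930872 on the minus strand, SMAD7 spans 48919853 to 48950965 on the minus strand, and SMAD4 spans 51030213 to 51085042 on the plus strand. Their log2 fold changes with all 8 libraries, 0.17, -0.07 and 0.24 in that order stand beside transcript GC contents of 40.2%, 58.7% and 41.1%, given as values with no test.

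Of 78 other genes of the pathway that were listed by function and are reported here, 66 were tested with all 8 libraries. None passed in edgeR's quasi-likelihood test (0 of 66), and 11 (16.7%) had an unadjusted p under 0.05, against 12.6% of all tested genes. DESeq2 called 3 of the 75 it tested, against 0.797% of all genes it tested, and limma-voom called 0 of 66, against 0.309%. The 3 DESeq2 calls were CDKN2B, FST and TAGLN, with DESeq2 adjusted p values of 3.59e-04, 0.00449 and 0.0352. The genes in the next 4 paragraphs are named by their abundance within each list, except where a sentence gives them as passing under another setting, and those were chosen after their values were seen.

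Among 18 tested transcriptional targets, 0 passed with all 8 libraries, with 8 positive and 10 negative log2 fold changes and a median of -0.02. The list holds genes that TGF-beta induces and others, such as MYC, that it represses. The split of signs and the median therefore do not measure a response to TGF-beta. The 2 most abundant targets did not pass. TGFBI, a secreted matrix protein named for its induction by TGF-beta, averaged 1615 ± 111 CPM in siETV4 and 1762 ± 115 CPM in siNC (SD, n = 4 each; log2 fold change -0.13, edgeR adjusted p 0.550). ID1, an inhibitor of differentiation that BMP signals induce, averaged 526 ± 51.3 CPM in siETV4 and 607 ± 61.5 CPM in siNC, with a log2 fold change of -0.21 (edgeR adjusted p 0.420). With GC content and length trends removed, 4 of the 18 targets passed and all 4 were higher in siETV4, against 0.871% of genes called higher. Without siNC replicate 4, 5 of the 18 passed, 3 higher and 2 lower in siETV4, against 12.0% and 4.88% of all genes. Chosen after their values were seen, the 4 were TAGLN, CDKN2B, CDKN1A and COL4A1, and the 5 were CDKN2B, TAGLN and the integrin gene ITGB1 as higher and MYC and BHLHE40 as lower. MYC, a proliferation-driving transcription factor that TGF-beta represses in keratinocytes, had 112, 97.1, 98.6 and 122 CPM in siETV4 and 146, 139, 135 and 117 CPM in siNC. Its groups overlapped through siNC replicate 4, and its log2 fold change was -0.32 with all 8 libraries (edgeR adjusted p 0.290) and -0.38 without that library (edgeR adjusted p 0.0224). BHLHE40, a transcriptional repressor, had 54.9, 52.3, 55.1 and 64.8 CPM in siETV4 and 76.8, 71.3, 72.1 and 66.8 CPM in siNC. Its groups did not overlap, and its log2 fold change was -0.34 with all 8 libraries (edgeR adjusted p 0.256) and -0.37 without siNC replicate 4 (edgeR adjusted p 0.0253). Neither MYC nor BHLHE40 passed with the trends removed (edgeR adjusted p 0.178 and 0.130). CDKN2B, which encodes the cell cycle inhibitor p15 through which TGF-beta arrests keratinocytes, had 73.1, 64.1, 70.7 and 80.3 CPM in siETV4 and 51.7, 48.5, 46.0 and 50.8 CPM in siNC. Its groups did not overlap, and its log2 fold change was 0.55 with all 8 libraries (edgeR adjusted p 0.0551), 0.56 without siNC replicate 4 (edgeR adjusted p 0.00774) and 0.41 with the trends removed (edgeR adjusted p 0.0285). TAGLN, an actin-binding protein of contractile cells, had a mean of 4.79 ± 1.55 CPM in siETV4, against 2.43 ± 0.617 CPM in siNC (SD, n = 4 each), with a log2 fold change of 0.98 (edgeR adjusted p 0.206) and 1.11 with the trends removed (edgeR adjusted p 0.0357). TAGLN shares 446 exon bases with PCSK7 on the opposite strand, which had 1639 to 2047 counts per library. TAGLN itself had 3.39 to 6.99 CPM in siETV4 and 1.77 to 3.05 CPM in siNC, where 1 CPM is about 40.1 counts. The strand setting is not stated, and whether PCSK7 reads entered the TAGLN counts was not tested. CDKN1A, the cell cycle inhibitor p21, and COL4A1, a basement membrane collagen, had log2 fold changes of 0.16 and 0.08 with all 8 libraries (edgeR adjusted p 0.493 and 0.734). With the trends removed the values were 0.30 and 0.25 (edgeR adjusted p 0.0335 and 0.0472). With the replicate number added as a block, TAGLN still passed (edgeR adjusted p 0.0327). CDKN2B, CDKN1A and COL4A1 then did not (edgeR adjusted p 0.0917, 0.0850 and 0.106).

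Extracellular regulators had 0 of 13 tested genes past the threshold with all 8 libraries. Thrombospondin 1 (THBS1), which can activate latent TGF-beta, averaged 1393 ± 259 CPM in siETV4 and 1207 ± 112 CPM in siNC (SD, n = 4 each; log2 fold change 0.21, edgeR adjusted p 0.516). FSTL3, a follistatin-like protein that binds activin, averaged 177 ± 18.2 CPM in siETV4 and 147 ± 26.4 CPM in siNC, with a log2 fold change of 0.27 (edgeR adjusted p 0.433). With GC content and length trends removed FSTL3 was the 1 gene of this list that passed, with a log2 fold change of 0.43 (edgeR adjusted p 0.00600). Without siNC replicate 4, 4 of the 13 genes passed as higher in siETV4, against 12.0% of all genes, here chosen after their values were seen: FST, which encodes the activin trap follistatin, DCN, and the integrin genes ITGAV and ITGB6, whose products join in an activator of latent TGF-beta. FST had 146, 133, 148 and 140 CPM in siETV4 and 108, 114, 109 and 105 CPM in siNC, without overlap, and a log2 fold change of 0.38 (edgeR adjusted p 0.110 with all 8 libraries, 0.0160 without siNC replicate 4). ITGB6 had a log2 fold change of 0.66 with all 8 libraries (edgeR adjusted p 0.359) and 1.00 without siNC replicate 4 (edgeR adjusted p 0.00762). DCN, which encodes the TGF-beta-binding proteoglycan decorin and is also on the fibroblast marker list, was below 1 CPM in every library.

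Genes that act on the SMADs or receptors inside the cell had 0 of 18 tested members past the threshold. FKBP1A, an immunophilin that binds the type I receptor, averaged 537 ± 5.61 CPM in siETV4 and 555 ± 54.0 CPM in siNC (SD, n = 4 each; log2 fold change -0.05, edgeR adjusted p 0.830). PMEPA1, a TGF-beta-induced protein that sequesters SMAD2 and SMAD3, had 280, 284, 279 and 316 CPM in siETV4 and 265, 256, 253 and 229 CPM in siNC. Its groups did not overlap, but its log2 fold change of 0.21 did not pass (edgeR adjusted p 0.362). With GC content and length trends removed PMEPA1 was the 1 gene of this list that passed (log2 fold change 0.32, edgeR adjusted p 0.00918). It shares 343 exon bases with NKILA on the opposite strand, which had 141 to 260 counts per library. Without siNC replicate 4, 4 of the 18 passed, 3 higher and 1 lower in siETV4, against 12.0% and 4.88% of all genes. Named after their values were seen, these were the deubiquitinase gene USP15 (log2 fold change 0.73) and the ubiquitin ligase genes WWP1 (0.53) and SMURF2 (0.44) as higher, and the corepressor gene SKI (-0.48) as lower, with edgeR adjusted p values of 0.0230 to 0.0451. With all 8 libraries, and with the trends removed, none of these 4 passed.

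With all 8 libraries none of the other ligands, receptors or SMADs passed, with 0 of 7, 0 of 7 and 0 of 3 tested genes. With siNC replicate 4 left out the counts were 0 of 7, 0 of 7 and 1 of 3. That gene was SMAD1, a BMP-activated SMAD named after its values were seen, with 29.5, 23.1, 28.2 and 24.8 CPM in siETV4 and 20.6, 17.4, 19.0 and 30.6 CPM in siNC. The highest SMAD1 value was siNC replicate 4, and its log2 fold change was 0.27 with all 8 libraries (edgeR adjusted p 0.534), 0.47 without that library (edgeR adjusted p 0.0272) and 0.04 with the trends removed (edgeR adjusted p 0.854). Of the other ligands, BMP2 averaged 17.1 ± 0.840 CPM in siETV4 and 15.8 ± 1.51 CPM in siNC (SD, n = 4 each), and GDF11 14.9 ± 1.14 CPM in siETV4 and 16.2 ± 1.02 CPM in siNC. Of the other receptors, the BMP type II receptor gene BMPR2 averaged 29.1 ± 6.61 CPM in siETV4 and 28.6 ± 9.72 CPM in siNC, and the activin type I receptor gene ACVR1B 26.0 ± 4.18 CPM in siETV4 and 27.9 ± 1.00 CPM in siNC. Of the other SMADs, the inhibitory SMAD6 had a log2 fold change of -0.16 and the BMP-activated SMAD5 of 0.22 (edgeR adjusted p 0.611 and 0.676). Over the 66 tested genes, the median log2 fold change was 0.05 with all 8 libraries and 0.00 with the trends removed, against -0.01 and -0.00 over all tested genes. The count past the threshold was 14 without siNC replicate 4, 11 higher and 3 lower in siETV4, against 16.9% of all genes (12.0% higher and 4.88% lower). It was 6 with the trends removed, all higher, against 1.73% of all genes (0.871% higher).

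**Figure D5:**
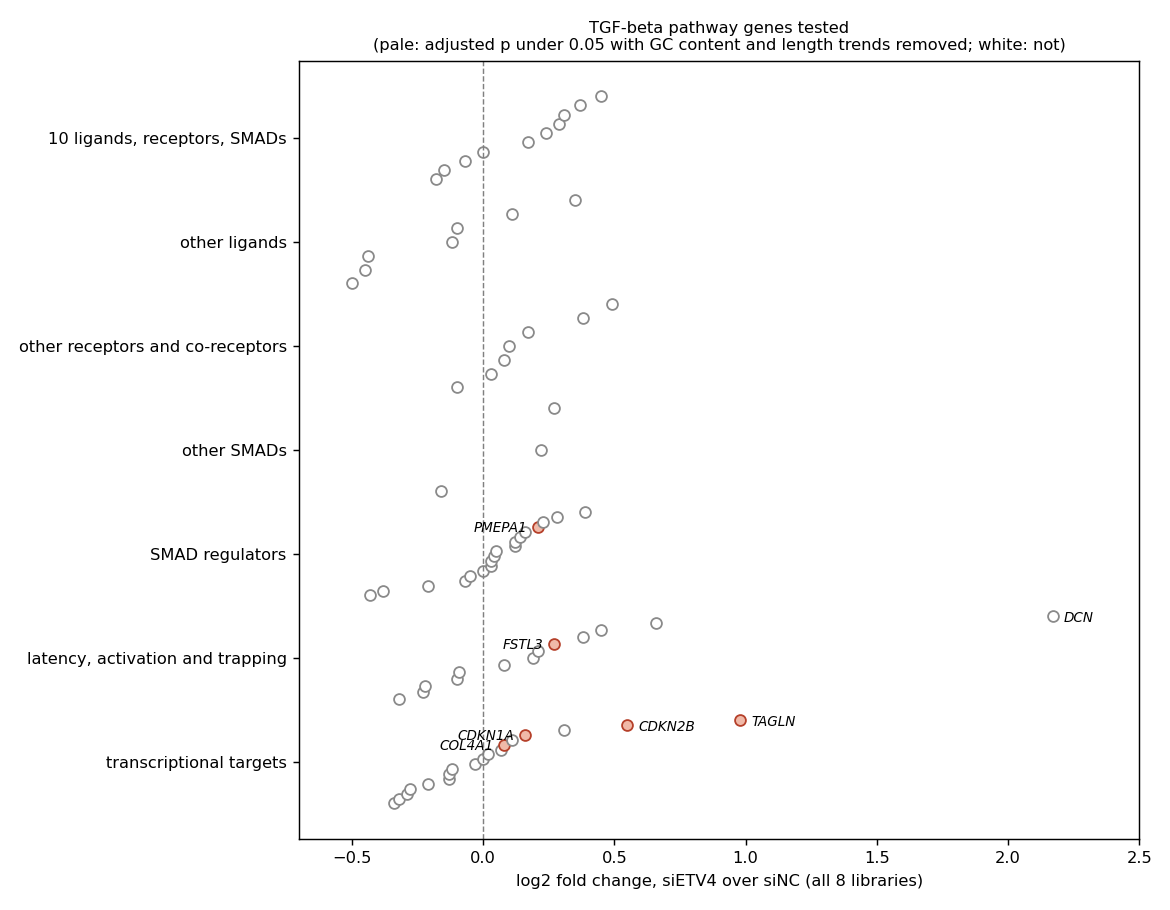
Log2 fold change, siETV4 over siNC with all 8 libraries, of the 10 genes (top row) and of the 66 other pathway genes tested, by list, with genes spread vertically in order of value. No gene passed (adjusted p under 0.05) with all 8 libraries, DCN at 2.17 included, and the 6 pale points passed with GC content and length trends removed.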

How the data were processed

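Total RNA of 8 HaCaT cultures was sequenced, and groups and replicate numbers come from the sample titles. The authors deposited raw counts per gene symbol and FPKM values for the same libraries. Per the submitters' processing notes, hg38 and R 3.2.0 were used. Not given in the sources used here are the aligner, counter, annotation and strand setting. The deposited FPKM equal the count divided by library total and a fixed gene length for 20584 of 20585 genes above 0 (relative tolerance 1e-06), so they hold no further scaling.

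Counts were tested in R 4.3.3 with edgeR 4.0.16: filterByExpr (minimum count 10), TMM factors, siRNA as the only term, the quasi-likelihood test, and Benjamini-Hochberg adjustment over all genes tested with a threshold of 0.05. CPM use TMM-scaled library sizes, and 1 CPM is about 40.1 counts. Standard errors were obtained from each log2 fold change and its quasi-likelihood F statistic, and 95% intervals from those errors with a t quantile. The cultures are labelled as biological replicates. DESeq2 1.42.0, limma 3.58.1, other scalings and filters, a replicate block, each library left out, and offsets removing each library's trend with GC content and length (splines, 5 degrees of freedom; 95.6% of tested genes had a GC value) were the alternatives. The tests were also run on simulated counts, and no result given here rests on that run. For GC content, each symbol's longest transcript in GENCODE v29 was used. The 10 genes and the lists were chosen with earlier results of these data known, and 2 listed genes are not reported here and are left out of the list counts. Named genes are the 10, ETV4, and from each other list up to 4 genes past the threshold by smallest p, or the 2 most abundant where fewer than 2 passed. Further genes, which passed under another setting, were named after their values were seen.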

Additional observations from a re-analysis of the deposited data

Results flagged for a closer look

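In 4 of the 20 combinations of gene and siRNA group, 1 library stood far from the other 3 of its group by Dixon's 95% criterion on the gap relative to the group's range, which chance gives in about 1 of 20 groups. In siNC replicate 4, TGFBR1 stood at 45.2 CPM, SMAD2 at 70.8 CPM and SKIL at 76.1 CPM, each the highest siNC value. In siETV4 replicate 3, SMAD7 stood at 16.1 CPM, the lowest siETV4 value, with the next at 17.0 CPM. Over all 13572 tested genes, siNC replicate 4 stood apart in this way in 9.60% of genes, siETV4 replicate 2 in 3.88%, and the other 6 libraries in 0.376% to 1.02%. The transcripts of TGFBR1, SMAD2 and SKIL have 39.0%, 40.2% and 33.4% GC, and siNC replicate 4 had a rho of -0.61 with GC content against 0.54 to 0.65 in the other siNC libraries. After removal of GC content and length trends, siNC replicate 4 stood at 33.8 CPM for TGFBR1 and 56.5 CPM for SKIL, still the highest siNC values, and at 51.6 CPM for SMAD2, the lowest.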

How the results depend on the processing

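The absence of calls among the 10 genes was found in every alternative but 1: leaving out 1 library gave 0 to 5 calls, the 5 without siNC replicate 4. The number of genes called over the whole table moved far more. It was 54 with no filter, 164 with DESeq2 and 59 on FPKM with a pseudocount of 1 or 0.1, against 32. With GC content and length offsets it was 225 (848 when siNC replicate 4 was also left out). Leaving out siNC replicate 4 alone gave 2327, and leaving out any 1 of the other libraries gave 9 to 16. For the other pathway genes the count was 1 with no filter, 3 with DESeq2, 2 on FPKM with either pseudocount and 1 without an FPKM filter, against 0. It was 6 with the offsets (7 without siNC replicate 4 too). Leaving out siNC replicate 4 alone gave 14, and leaving out any 1 of the other libraries gave 0. With the replicate number as a block, 4 genes of the table and 0 pathway genes passed, and 103 and 3 with the offsets as well. Those 3 were FSTL3, TAGLN and PMEPA1 (edgeR adjusted p 0.0287, 0.0327 and 0.0436). The deviations of same-numbered libraries had r of -0.16, 0.47, -0.26 and -0.30 across genes for numbers 1 to 4. These r values also carry each library's trend with GC content, so they cannot show whether the numbers pair the samples. The labels state no pairing.

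Small log2 fold changes crossed 0 without passing. TGFBR2, at -0.00, became 0.01 with RLE factors or DESeq2, 0.04 with library size alone, -0.04 to 0.07 when 1 library was left out (0.07 without siETV4 replicate 2, 0.05 without siNC replicate 4), and 0.03 or 0.04 on FPKM. With the offsets, TGFB1 was at 0.01 (also with the block), SMAD2 at -0.00 (-0.06 without siNC replicate 4) and SMAD7 at 0.05 (0.06 with the block, 0.13 without siNC replicate 4), and INHBA at -0.01 with the offsets and without siNC replicate 4. At 4 libraries a group, the 95% interval of TGFBR1 spans -0.30 to 1.03. The causes were not tested.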

Other observations

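Of the 78 other pathway genes, 12 were too low to test. NODAL, ACVR1C and LRRC32 had 0 counts in all 8 libraries, which allows up to 0.0720 to 0.0856 CPM per library (3 counts of its total, counting error only). The co-receptor gene TGFBR3, which presents TGFB2 to the receptors, had 4 to 13 counts per library, at most 0.200 CPM in siETV4 and 0.323 CPM in siNC. ENG, the endothelial co-receptor endoglin, had 0 counts in every siETV4 library and at most 0.0744 CPM in siNC. SNAI1, an epithelial-mesenchymal transition factor that TGF-beta induces in epithelial cells, had 0 to 4 counts per library.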
